A study of Mus musculus with 8 samples.

Results

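The mitochondrial ribosomal protein genes were analyzed in LT-HSCs (long-term repopulating hematopoietic stem cells) of *IκBα* WT, HET and KO mouse fetal liver. Members were the protein-coding genes of GRCm38 whose symbol begins with *Mrpl* or *Mrps* and a digit. By this rule there were 78 genes, 49 named for the large subunit (*Mrpl*) and 29 for the small subunit (*Mrps*), among 55487 genes counted. All 78 had at least 10 reads summed over the samples and were tested with 20610 genes in total. The study compared 3 WT, 3 HET and 2 KO samples, each of 500 cells with the phenotype lineage- SCA1+ cKIT+ CD48- CD150+, sorted from the liver of E14.5 embryos. A further KO sample was dropped by the authors for its quality. KO embryos lack *Nfkbia*, the gene of IκBα, in all tissues, HET embryos carry 1 targeted copy, and all came from matings of heterozygous parents without any further treatment. WT1, WT2 and HET1 are labelled male and total RNA, and WT3, HET2, HET3, KO1 and KO2 are labelled female and polyA RNA, so sex and the RNA label cannot be told apart and no KO sample was male. Because nothing in the labels ties samples to litters, p-values measure the spread between these samples only.

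Mitochondrial ribosomes translate the mRNAs of the mitochondrial genome, which encode core subunits of the respiratory chain and of ATP synthase. Their ribosomal RNAs are made inside the organelle, whereas all their proteins are encoded in the nucleus, made in the cytosol and imported. The small subunit binds the mRNA and reads the codon, and the large subunit joins the amino acids. Many of the proteins have a bacterial counterpart and others were added in mitochondria. HSCs are known for a low rate of protein synthesis compared with their progeny.

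Nuclear genes for mitochondrial proteins often carry sites for NRF1, for ETS factors such as GABPA and for YY1 near the start of transcription. RefSeq promoters on GRCm38.p6, from 250 bases before to 50 bases after the start, were matched by symbol for 69 of the 78 genes. The letters searched on both strands were GCATGCGC (NRF1), CCGGAAG (ETS) and AAGATGGC (YY1), none of which contains another. The ETS letters stood in 26 of 69 members (37.7%), against 9.93% of 27025 genes with a promoter and 24.2% of the 7039 protein-coding genes with a mean of 10 CPM or more in these cells (CPM, reads scaled to the size of the library after TMM normalization). The YY1 letters stood in 12 members (17.4%), against 3.19% and 6.39%, and the NRF1 letters in 8 members (11.6%), against 3.05% and 7.03%. At least 1 of the 3 was present in 38 members (55.1%), against 14.9% and 33.9%. The median log2 fold change between KO and WT/HET was -0.73 in the 38 genes with a match and -0.73 in the 31 without. By single motif it was -0.84 with and -0.71 without the NRF1 letters, and -0.81 and -0.70 for YY1. For ETS it was -0.70 with and -0.74 without, and these differences were not tested. Such matches are a description of the letters, not of binding.

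The promoters of 7 genes are shown because these genes recur in the results: *Mrpl17* had the lowest p-value of all members, *Mrpl52* and *Mrpl12* the largest differences, *Mrps12* the lowest p-value among small subunit proteins by structure, *Mrps18a* and *Mrps18b* are copies of one bacterial gene, and *Mrpl32* held the most matches. Capitals mark the letters matched, on either strand. In *Mrpl32* the first capital run is YY1 letters and the others are NRF1 letters, of which 2 overlap in the palindromic run. *Mrpl12* held no match.
Mrpl17 (chr7:105811038-105811337, minus strand, GRCm38.p6): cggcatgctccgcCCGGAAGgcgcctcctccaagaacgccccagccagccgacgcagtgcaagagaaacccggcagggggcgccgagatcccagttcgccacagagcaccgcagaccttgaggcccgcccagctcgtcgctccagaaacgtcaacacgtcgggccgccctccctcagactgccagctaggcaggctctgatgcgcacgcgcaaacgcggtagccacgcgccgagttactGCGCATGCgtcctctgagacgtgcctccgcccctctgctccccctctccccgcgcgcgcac
Mrpl52 (chr14:54426659-54426958, plus strand, GRCm38.p6): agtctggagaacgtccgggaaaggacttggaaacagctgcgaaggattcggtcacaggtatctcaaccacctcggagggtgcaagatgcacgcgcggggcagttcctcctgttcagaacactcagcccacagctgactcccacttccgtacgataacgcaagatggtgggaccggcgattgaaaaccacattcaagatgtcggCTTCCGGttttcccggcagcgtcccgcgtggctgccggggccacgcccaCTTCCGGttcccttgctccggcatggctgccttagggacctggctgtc
Mrpl12 (chr11:120484387-120484686, plus strand, GRCm38.p6): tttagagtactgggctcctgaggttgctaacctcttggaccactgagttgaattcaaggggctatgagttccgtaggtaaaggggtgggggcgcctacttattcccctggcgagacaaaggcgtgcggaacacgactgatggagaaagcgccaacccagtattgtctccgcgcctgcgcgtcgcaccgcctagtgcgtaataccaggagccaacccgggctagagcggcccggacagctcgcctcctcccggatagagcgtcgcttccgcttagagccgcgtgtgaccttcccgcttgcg
Mrps12 (chr7:28741772-28742071, minus strand, GRCm38.p6): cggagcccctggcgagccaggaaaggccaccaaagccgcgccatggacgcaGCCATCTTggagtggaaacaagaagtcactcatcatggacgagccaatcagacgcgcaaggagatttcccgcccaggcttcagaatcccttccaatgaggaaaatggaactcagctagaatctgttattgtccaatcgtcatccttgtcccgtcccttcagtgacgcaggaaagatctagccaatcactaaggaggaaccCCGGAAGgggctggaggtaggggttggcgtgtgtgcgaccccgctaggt
Mrps18a (chr17:46110754-46111053, plus strand, GRCm38.p6): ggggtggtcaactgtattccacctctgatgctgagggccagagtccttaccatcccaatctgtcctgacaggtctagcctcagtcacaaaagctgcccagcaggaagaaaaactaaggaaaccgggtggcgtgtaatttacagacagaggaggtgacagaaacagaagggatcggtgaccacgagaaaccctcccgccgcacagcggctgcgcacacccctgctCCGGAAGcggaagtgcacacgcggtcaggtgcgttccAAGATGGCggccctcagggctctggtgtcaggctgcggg
Mrps18b (chr17:35916391-35916690, minus strand, GRCm38.p6): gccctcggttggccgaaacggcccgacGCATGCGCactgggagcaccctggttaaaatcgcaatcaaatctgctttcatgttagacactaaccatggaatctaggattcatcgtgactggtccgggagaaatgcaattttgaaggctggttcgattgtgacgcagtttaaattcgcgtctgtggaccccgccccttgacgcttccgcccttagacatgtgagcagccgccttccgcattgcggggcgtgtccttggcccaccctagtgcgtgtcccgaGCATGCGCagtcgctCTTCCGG
Mrpl32 (chr13:14612988-14613287, minus strand, GRCm38.p6): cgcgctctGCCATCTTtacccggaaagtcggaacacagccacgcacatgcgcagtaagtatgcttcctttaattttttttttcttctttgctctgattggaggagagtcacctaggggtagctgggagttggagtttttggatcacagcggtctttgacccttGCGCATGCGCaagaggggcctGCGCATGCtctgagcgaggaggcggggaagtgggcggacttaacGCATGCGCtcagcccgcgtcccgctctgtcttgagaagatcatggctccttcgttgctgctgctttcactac
In *Mrps18a* an ETS match 26 bases before the start is followed by a YY1 match 11 bases after it, and *Mrpl52* held ETS letters on the opposite strand at 47 bases before and 2 bases after the start.

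The labels were checked first. *Nfkbia* lay between 14.4 and 67.7 CPM in the WT and HET samples and at 0.049 and 0 CPM in KO1 and KO2, under the floor of 3 reads. The samples held 17895973 to 21720972 counted reads, and 3 reads correspond to 0.125 to 0.178 CPM, a floor that covers counting error only. The markers of the sorted cells were uneven. The summed level of 7 HSC markers (*Kit*, *Ly6a*, *Slamf1*, *Procr*, *Mecom*, *Hlf*, *Ptprc*) was 1229 CPM in WT1, 1302 in WT2, 226 in WT3, 451 in HET1, 398 in HET2, 197 in HET3, 1074 in KO1 and 740 in KO2. In HET3, *Ly6a*, the gene of the SCA1 protein used for sorting, had 0 reads and *Procr* was at 1.13 CPM, and in WT3 they were at 5.0 and 8.49 CPM. WT3 and HET3 therefore stood apart from the labelled cell type in the sum and in each of these markers except *Kit*. *Kit*, whose protein was also used for sorting, was at 148 CPM in WT3 and 170 in HET3, against 135 to 231 in the other samples. *Cd48*, whose protein was excluded by the sort, was not raised, at 45.8 and 51.2 CPM against 46.2 to 89.1 in the other samples. HET1 and HET2 were also below the male WT and the KO samples in the sum, and both stay in the fits without WT3 and HET3. Values without WT3 and HET3 are given for the counts and medians of the members in the main comparisons and for the other gene lists. They are not given for the members split by structure, origin, promoter letters or length. The fold changes of single genes include WT3 and HET3. Erythroid markers (8 genes) summed to 1205 to 3061 CPM in WT, 3357 to 14414 in HET and 701 to 3097 in KO. Hepatocyte markers (7 genes) summed to 8.57 to 1277 CPM in WT, 93.1 to 628 in HET and 7.54 and 232 in KO, highest in WT3 and HET3, with *Ttr* at 0 in both male WT samples. Myeloid markers (6 genes) summed to 668 to 878 CPM in WT, 131 to 752 in HET and 670 and 386 in KO, megakaryocyte markers (4 genes) to 61.2 to 1257, 23.1 to 428, and 1008 and 106, and endothelial markers (5 genes) to 10.9 to 80.3, 4.27 to 29.8, and 66.5 and 42.3 in the same order.

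The 78 genes together took 0.947% to 1.61% of the reads of a sample. Their summed level was 9250 CPM in WT1, 8171 in WT2, 18259 in WT3, 13787 in HET1, 16420 in HET2, 18380 in HET3, 8691 in KO1 and 12077 in KO2. The means were 11893 ± 5539 CPM (SD, n = 3) in WT, 16196 ± 2305 (SD, n = 3) in HET and 10384 ± 2395 (SD, n = 2) in KO. Both KO samples lay below the 3 HET samples and below WT3, while KO1 lay between the male WT samples and KO2 above both. WT3 held 2.10 times the mean of WT1 and WT2, a spread within WT larger than the ratio between KO and the female WT and HET samples (0.587). The order of the samples was close to the reverse of that of the HSC markers: the 4 samples with the highest HSC marker sums (WT2, WT1, KO1, KO2) were the 4 with the lowest sums here, and HET3 and WT3 stood at the other end of both. The part of the markers in the differences below was not tested, and in bulk samples fewer cells of a type and less RNA per cell cannot be told apart.

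Large and small subunit genes moved together across samples. The summed level of the large subunit was 6272, 5505 and 12656 CPM in WT1 to WT3, 9413, 11245 and 12689 in HET1 to HET3, and 5889 and 8228 in KO1 and KO2. For the small subunit it was 2978, 2666 and 5603 CPM in WT, 4374, 5175 and 5692 in HET, and 2801 and 3849 in KO. The ratio of the sums stayed between 2.06 and 2.26 in the 8 samples. On the mean log2 CPM of the genes (prior count 2), large minus small was 0.30 ± 0.025 in WT (SD, n = 3), 0.28 ± 0.015 in HET (SD, n = 3) and 0.30 ± 0.011 in KO (SD, n = 2). The ranges of the 3 genotypes overlapped, from 0.26 to 0.32 over all samples, so the balance of the subunits did not separate them.

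**Figure D1:**
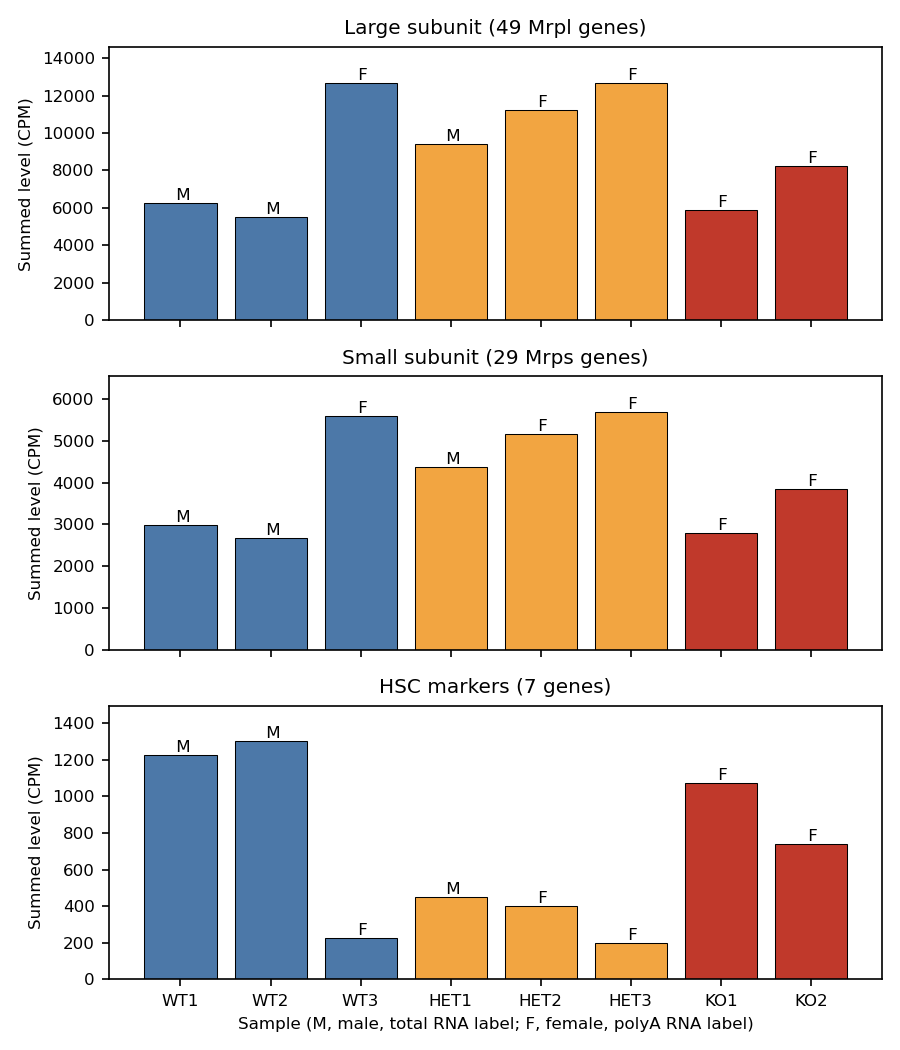
Summed level in CPM of the 49 large subunit genes (top), the 29 small subunit genes (middle) and 7 HSC markers (bottom) in each sample, with 1 bar per sample, colored by genotype and marked M or F for male or female. KO1 (8691 CPM for both subunits together) stood at the level of the male WT samples (9250 and 8171 CPM), and the HSC markers ran in nearly the opposite order.

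Compared per length of annotated mRNA, the members of a mean of 10 CPM or more spanned 30.6-fold in their level over the 8 samples. The highest were *Mrpl42* (454 CPM per kb), *Mrpl34* (441) and *Mrpl52* (432), and the median was 109 for the large and 70.7 for the small subunit. The lowest of those named were *Mrps36* (8.11 CPM per kb) and *Mrpl48* (14.8), a mitochondrial addition to the large subunit. *Mrps36* is named for the ribosome, but its protein belongs to the 2-oxoglutarate dehydrogenase complex. It reached only 3.59 to 7.97 CPM, and 17.3% of its stretches of 50 bases, the read length, also occurred in transcripts of other genes, among them the pseudogene *Mrps36-ps1*. *Mrpl53* stayed between 0.042 and 0.26 CPM, at or near the floor of 3 reads, and *Mrpl23* between 4.28 and 5.85 CPM. Both were chosen here after their values were seen. They were the only members under 5 CPM on average.

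The first comparison was KO against WT and HET pooled, the design of the study, with sex in the model. By the quasi-likelihood test of edgeR, 0 of the 78 members were called, that is with an adjusted p-value under 0.05 and a log2 fold change beyond 1 in either direction, as for all genes (0%). At an unadjusted p-value under 0.05, 63 of 78 were lower in KO and 0 were higher, where 9.48% of all genes tested and 19.7% of those with a mean of 10 CPM or more were lower. These were 39 of 49 large and 24 of 29 small subunit genes. The median log2 fold change was -0.72 over the members, -0.74 for the large and -0.70 for the small subunit, against 0.13 over all genes tested and -0.09 over those of 10 CPM or more. The fold change was negative for 77 of 78, and the adjusted p-values began at 0.148. With DESeq2's Wald test in the same model, 43 members were lower at an adjusted p-value under 0.05 (27 large, 16 small) and 0 higher, with no adjusted p for 1 member, where 4.67% of all genes and 9.83% of those of 10 CPM or more were lower. Of these, 9 had a log2 fold change under -1 (1.56% of all genes), and with apeglm shrinkage 2 did, *Mrpl52* and *Mrps34* (0.597%).

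Since no KO sample was male, the fitted fold change in this model equals the difference between the 2 KO samples and the 3 female WT and HET samples, and the male samples enter through the spread alone. Against these 3 samples both KO samples were lower for 76 of 78 genes, all but *Mrpl23* and *Mrpl53*, where 21.4% of all genes and 36% of those of 10 CPM or more were. Against the male WT samples the direction turned. Both KO samples lay above both male WT samples for 18 members (15.7% of all genes) and below both for none. Against these 2 samples without sex in the model the median log2 fold change was 0.25, positive for 76 of 78. In that fit 0 members had an unadjusted p-value under 0.05 by edgeR, where 406 of 20610 genes were lower and 293 higher. No member had both KO samples below all 6 WT and HET samples (1.79% of all genes) or above them. In the main model the male samples were lower than the female WT and HET samples for 72 members at an unadjusted p-value under 0.05 (13.6% of all genes). The median was -0.72 on the log2 scale, as large as the KO difference. Without sex in the model the KO median was -0.40, and 0 members had an unadjusted p-value under 0.05. Without WT3 and HET3 and with sex, where HET2 is the only female reference, the median was -0.66 and 4 members were lower at an unadjusted p-value under 0.05 (1.02% of all genes). Without KO1 4 members were lower as well (1.67% of all genes). The direction therefore held against the female samples and turned against the male WT samples.

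**Figure D2:**
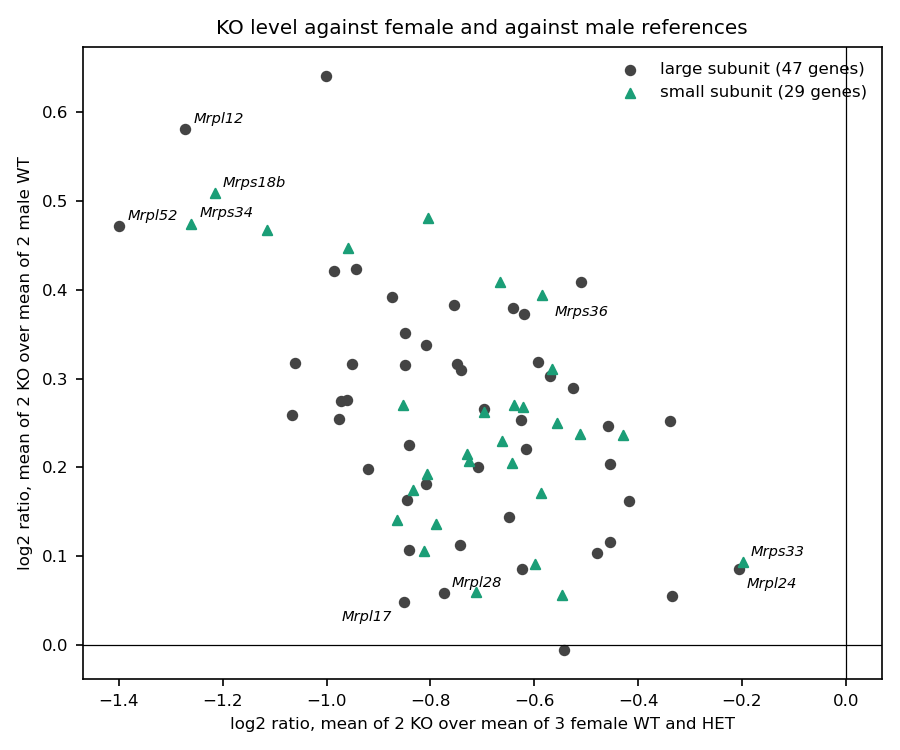
Each point is 1 gene (76 with a mean of 5 CPM or more), with the log2 ratio of the mean KO level over the mean of the 3 female WT and HET samples on the horizontal axis and over the mean of the 2 male WT samples on the vertical axis. All 76 genes lie left of 0, with ratios from 0.379 to 0.872, and 75 lie above 0, with ratios up to 1.56.

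Among the proteins of the stalk, which recruits the translation factors, *Mrpl12* differed most. MRPL12 forms the flexible stalk and is also known to bind the mitochondrial RNA polymerase. *Mrpl12* (chr11:120484613-120489065, plus strand) was at 224, 184 and 754 CPM in WT1 to WT3, 530, 668 and 786 CPM in HET1 to HET3, and 190 and 419 CPM in KO1 and KO2. KO1 stood with the male WT samples and KO2 between them and the HET samples, so KO and WT overlapped. Its log2 fold change was -1.27 ± 0.49 (SE, unadjusted p = 0.031, edgeR adjusted p = 0.17), and its span from the lowest to the highest sample, 4.28-fold, was the widest of the 76 members of 5 CPM or more. *Mrpl10* and *Mrpl11*, at the base of the stalk, had log2 fold changes of -0.48 and -0.51. *Mrpl10* lay between 92.0 and 161 CPM and *Mrpl11* between 113 and 234 CPM, so within 1 structural unit the stalk protein and its base differed in size of change, a difference that was not tested. *Mrpl1*, of the stalk on the other side of the subunit, had -0.92 ± 0.26 (unadjusted p = 0.0071).

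In the body of the large subunit, *Mrpl17* had the lowest p-value of all members. *Mrpl17* (chr7:105803206-105811099, minus strand) was at 237, 249 and 483 CPM in WT, 303, 433 and 443 CPM in HET, and 232 and 271 CPM in KO. KO1 was the lowest of the 8 samples, and KO2 lay above both male WT samples. The log2 fold change was -0.85 ± 0.17 (SE, unadjusted p = 0.00088, edgeR adjusted p = 0.148, exact permutation test over 2 against 6 samples, two-sided, p = 0.25, where 0.0714 is the smallest p possible). *Mrpl28*, another protein with a bacterial counterpart, was at 272, 243 and 450 CPM in WT, 365, 457 and 467 CPM in HET, and 238 and 298 CPM in KO. KO1 was again the lowest sample and KO2 above both male WT samples, and its log2 fold change was -0.77 ± 0.21. *Mrpl40*, a mitochondrial addition, and *Mrpl16*, next to the tRNA sites, had -0.74 and -0.84. *Mrpl2* and *Mrpl3*, which also line the catalytic center in bacteria, had -0.74 and -0.65. *Mrpl47*, at the exit of the peptide tunnel, had -0.99, but 24.2% of its exon bases overlapped genes on the opposite strand. *Mrpl58*, a peptidyl-tRNA hydrolase that frees stalled ribosomes, had -0.71.

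The largest difference of all members was that of *Mrpl52*, a mitochondrial addition with one of the highest levels per length. *Mrpl52* (chr14:54426909-54429756, plus strand) was at 97.9, 86.8 and 370 CPM in WT, 242, 313 and 331 CPM in HET, and 91.0 and 165 CPM in KO. Here both KO samples were below the 3 HET samples and WT3, at 0.379 times the female WT and HET mean, and at 1.39 times the mean of the male WT samples. The log2 fold change was -1.40 ± 0.46 (SE, unadjusted p = 0.015, edgeR adjusted p = 0.15). *Mrpl42* and *Mrpl34*, the other genes of high level per length, had -0.95 and -0.70, and *Mrpl48* had -0.53 with an unadjusted p of 0.064.

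Small subunit genes showed a like order of samples. *Mrps12*, whose protein lines the decoding site (chr7:28739641-28741820, minus strand), was at 129, 120 and 222 CPM in WT, 186, 239 and 247 CPM in HET, and 123 and 151 CPM in KO. Its log2 fold change was -0.79 ± 0.22 (SE, unadjusted p = 0.0060, edgeR adjusted p = 0.148). *Mrps7*, of the head of the subunit, was at 166, 159 and 331 CPM in WT, 243, 297 and 349 CPM in HET, and 149 and 208 CPM in KO, with -0.86 ± 0.24. For both genes KO2 lay between the male WT samples and HET1. *Mrps10*, also of the head, and *Mrps23*, a mitochondrial addition, had -0.85 and -0.81. *Mrps2* and *Mrps5*, near the path of the mRNA, had -0.59 and -0.67. *Mrps28* had -0.80. *Mrps34*, a mitochondrial addition, had -1.26, but all of its exon bases (100%) overlapped other genes, *Nme3* and *Mapk8ip3*, so its reads are uncertain.

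The 3 genes named *Mrps18* descend from 1 bacterial gene, and their proteins sit at different places. *Mrps18b* (chr17:35910379-35916389, minus strand) was at 31.3, 24.8 and 96.4 CPM in WT, 60.4, 79.6 and 102.02 CPM in HET, and 24.8 and 55.0 CPM in KO, with a log2 fold change of -1.22 ± 0.44 (SE, unadjusted p = 0.024). An antisense gene overlapped 30.5% of its exon bases. *Mrps18c*, the copy in the place of the bacterial protein, had -0.56 ± 0.25 (unadjusted p = 0.056, with 23.2% of its exon bases overlapped by *Gm43511*), and *Mrps18a*, whose protein is in the large subunit, had -0.71 ± 0.23 (unadjusted p = 0.013). *Mrps30*, also a large subunit protein by structure, was at 97.6, 85.2 and 180 CPM in WT, 122, 173 and 197 CPM in HET, and 81.8 and 124 CPM in KO, with -0.83 ± 0.23 (unadjusted p = 0.0059). Counting *Mrps18a* and *Mrps30* with the large subunit and leaving out *Mrps36* gave medians of -0.74 and -0.68 for 51 large and 26 small subunit genes.

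**Figure D3:**
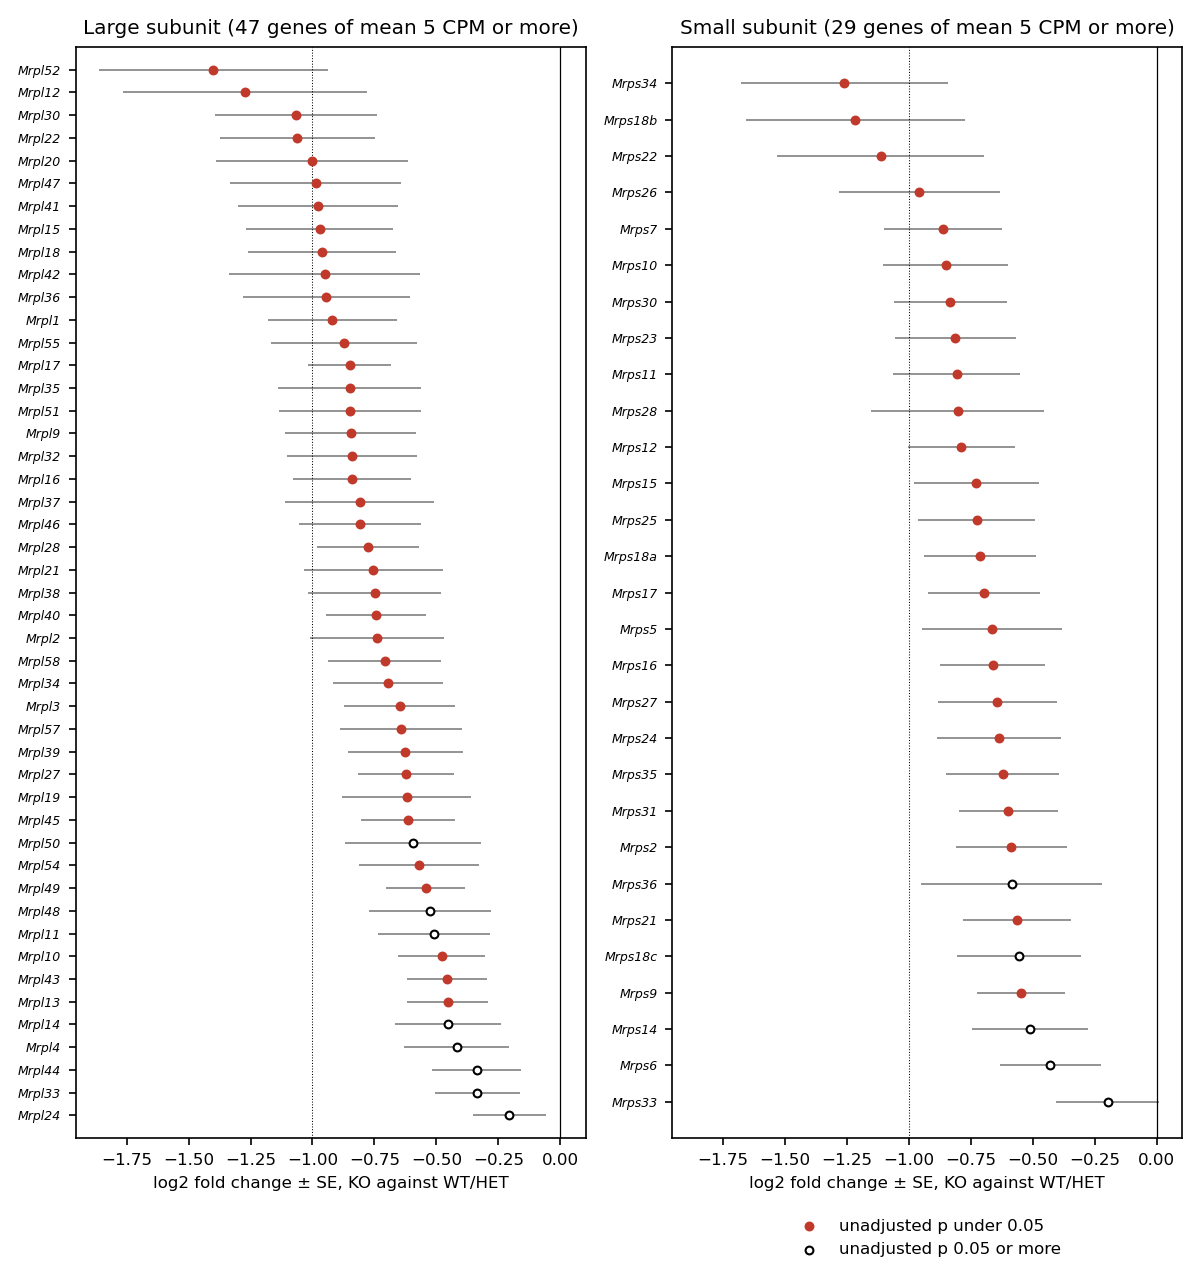
Log2 fold change of KO against WT/HET with its standard error for the 47 large (left) and 29 small (right) subunit genes with a mean of 5 CPM or more, sorted by size. Filled points had an unadjusted p-value under 0.05, the dotted line marks -1, and every point lies left of 0, from *Mrpl52* at -1.40 to *Mrps33* at -0.20.

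A few members stayed nearly level. *Mrps33*, a mitochondrial addition, lay between 21.9 and 30.1 CPM in all 8 samples (log2 fold change -0.20 ± 0.21), the narrowest span (1.38-fold) among the 76 members of 5 CPM or more. *Mrpl24* lay between 72.5 and 102.2 CPM (-0.21 ± 0.15), with 26.3% of its exon bases overlapped by *Rrnad1* on the opposite strand. *Mrpl23* had the only positive fold change, 0.13 ± 0.36, at 5.85, 4.85 and 4.32 CPM in WT, 5.26, 4.94 and 4.57 CPM in HET, and 5.82 and 4.28 CPM in KO. These 3 genes were chosen after their values were seen. Of the 45 members whose exons overlapped no other gene, 38 had an unadjusted p-value under 0.05, with a median of -0.74.

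Across the samples the order was shared by nearly all members. KO1 was below KO2 for 76 of 78, all but *Mrpl23* and *Mrpl43*. WT2 was the lowest sample for 58 members, KO1 for 15, WT1 for 4 and KO2 for 1. HET3 was the highest for 42, WT3 for 30, HET2 for 5 and WT1 for 1. WT3 lay above both male WT samples for 77 members, all but *Mrpl23*, where 38.4% of all genes did.

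**Figure D4:**
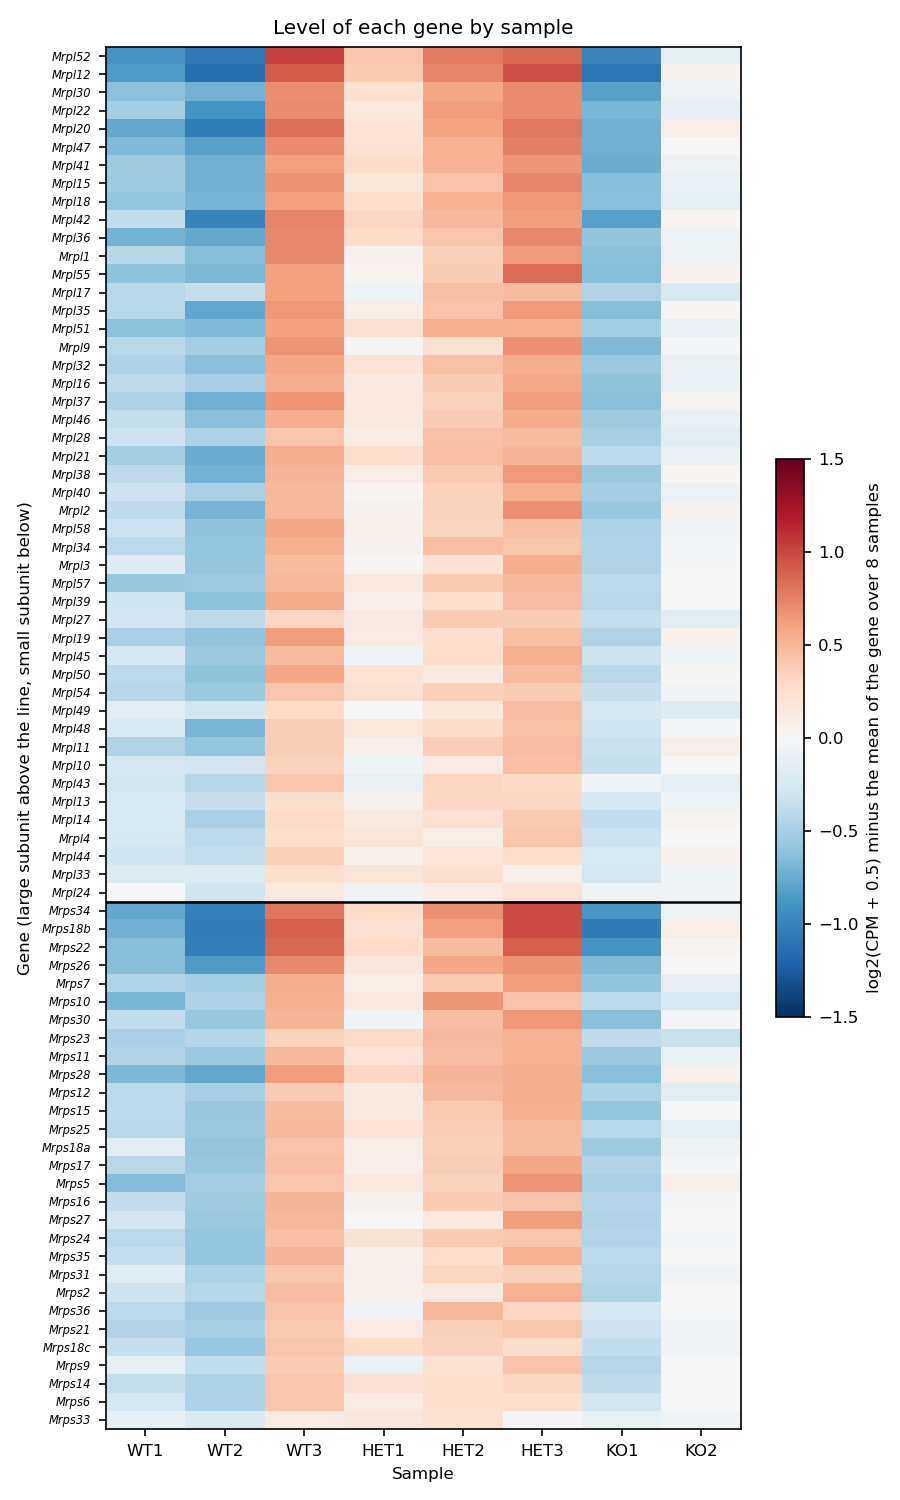
Level of the 76 genes with a mean of 5 CPM or more in each sample, as log2(CPM + 0.5) minus the mean of the gene over the 8 samples (blue lower, red higher), with the large subunit above the line and the small subunit below, sorted by KO fold change. WT1, WT2 and KO1 are low and WT3, HET2 and HET3 high for nearly every gene, with KO2 and HET1 between them.

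By origin, the medians were alike. The 29 large subunit proteins listed with a bacterial counterpart had a median of -0.77 and the 22 listed as added in mitochondria one of -0.71. *Mrps18a* and *Mrps30* were counted among the 22, although *Mrps18a* is a copy of a bacterial gene. In the small subunit the 16 with a bacterial counterpart had -0.66 and the 10 additions -0.77. The genes lay on 17 chromosomes, most on chromosomes 11 (11 genes) and 17 (8 genes). *Mrpl46* and *Mrps11* are divergent neighbors on chromosome 7 that overlap by 413 bases, and had -0.81 each, at 0.571 times the female WT and HET mean. Genes with short mRNAs were lower as a whole in KO than in the female WT and HET samples. The share of protein-coding reads on short mRNAs, by another limit of length, was 18.1% in KO1 and 19.1% in KO2. It was 18.1% in WT1 and 17.8% in WT2, so KO was not below the male WT samples. In WT3, HET1, HET2 and HET3 it was 20.5% to 22.0%. Over protein-coding genes of 10 CPM or more the median log2 fold change was -0.33 in the 2176 genes with the shortest mRNAs (371 to 2033 bases) and 0.08 in the 2176 with the longest. Split into 4 bins of length, members were below these genes in each, with medians of -0.75 (49 genes), -0.63 (10), -0.84 (10) and -0.71 (6) from the shortest to the longest.

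The second comparison was HET against WT, fitted on their 6 samples with a term for sex. With edgeR, 0 members were called by the same limits (0% of all genes). DESeq2 also called 0 members, where 35 of 20610 genes were called lower and 29 higher. At an unadjusted p-value under 0.05, 1 member was higher in HET (1.8% of all genes) and 0 were lower. This was *Mrps23*, at 87.2, 90.4 and 155 CPM in WT and 150, 172 and 176 CPM in HET (log2 fold change 0.46, p = 0.035, exact permutation test, two-sided, p = 0.2, where 0.1 is the smallest p possible). A replicate block, which pairs same-numbered WT and HET samples, left 0 members at that threshold. *Mrps12* and *Mrps34* followed with 0.35 and 0.61 and unadjusted p-values of 0.061 and 0.069. The median was 0.28 over the members, 0.27 for the large and 0.30 for the small subunit, against 0.00 over all genes tested, with 77 of 78 positive. No member had all 3 HET samples above all 3 WT samples (4.2% of all genes).

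The HET difference lay differently in the male and the female samples. HET1, the male HET sample, lay above both male WT samples for 76 members (38.8% of all genes), at 1.58 times their mean for the summed level, and HET2 and HET3 together were at 0.953 times WT3. For 30 members HET1 lay above both male WT samples while HET2 and HET3 both lay below WT3 (12.6% of all genes). A test of the difference itself in edgeR gave an unadjusted p-value under 0.05 for 39 of 78, all with the higher HET difference in males (6.39% of all genes), and 0 at an adjusted p-value under 0.05, the lowest being 0.419. Without WT3 and HET3, where the HET difference rests on HET1 alone and the spread, with 1 residual degree of freedom, on WT1 and WT2, 8 members were called higher, *Mrpl12*, *Mrpl20*, *Mrpl36*, *Mrpl52*, *Mrps18b*, *Mrps22*, *Mrps28* and *Mrps34* (3.26% of all genes), with a median of 0.60 over the 78. Without HET1 the median was -0.07, and without WT3 it was 0.60 with 53 members higher at an unadjusted p-value under 0.05 (9.51% of all genes). Only 1 male HET and 1 female WT sample entered these values.

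KO was also compared with each genotype alone, in comparisons that share the KO samples. Against WT, 0 members passed in edgeR (3.21% of all genes did), and 59 were lower at an unadjusted p-value under 0.05 (7.21% of all genes), with a median of -0.74. With sex in the model and no male KO sample, this difference rests on WT3 alone, the sample low in HSC markers. Without sex the median was -0.17 and 0 members had an unadjusted p-value under 0.05, where 109 of 20610 genes were lower and 91 higher. Against the male WT samples the median turned, as given above. Against HET, 0 passed (0% of all genes), and 54 were lower (6.16%), with a median of -0.71. Both KO samples lay below all 3 HET samples for 65 of 78 members (18.1% of all genes), a comparison in which HET1 is male. With 3 genotype levels fitted on all 8 samples, 20 members were lower than WT (2.56% of all genes) and 69 lower than HET (11.4%) at an unadjusted p-value under 0.05. Without HET3, which leaves HET2 as the only female HET sample, 2 members were lower than HET, with a median of -0.66. In that fit 56 of 8885 genes of 10 CPM or more were lower and 269 higher at an unadjusted p-value under 0.05.

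Genes that act beside the ribosomal proteins were taken from lists, whose fold changes in KO are again those against the female samples. Their counts at an unadjusted p-value under 0.05 stand beside the shares given above for all genes (9.48%) and those of 10 CPM or more (19.7%). All 5 mitoribosomal proteins with other symbols had negative fold changes, and 4 had an unadjusted p-value under 0.05. They are *Dap3* (-0.60), *Ptcd3* (-1.05), *Aurkaip1* (-0.81), *Chchd1* (-0.53) and *Gadd45gip1* (-1.07, unadjusted p = 0.099). In mitochondrial transcription and ribosome assembly, 11 of 30 genes were lower and 0 higher at an unadjusted p-value under 0.05, led by the GTPase *Mtg1* (-0.77), the packaging factor *Tfam* (-0.62), *Mterf3* (-0.55) and *Fastkd2* (-1.01). *Polrmt*, the mitochondrial RNA polymerase, was at 17.7, 17.4 and 24.6 CPM in WT, 18.9, 21.2 and 35.5 CPM in HET, and 24.7 and 37.8 CPM in KO, with a positive fold change of 0.21 ± 0.28. It thus did not follow *Mrpl12*. Of 14 translation factors 4 were lower, the elongation factors *Tsfm* (-1.05) and *Gfm1* (log2 fold change close to -1), the recycling factor *Mrrf* (-0.55) and *Gatc* (-0.46), and *Tufm* had -0.93 with an unadjusted p of 0.053. Of 17 mitochondrial aminoacyl-tRNA synthetases 6 were lower, among them *Yars2* (-0.86), *Iars2* (-0.63), *Ears2* (-0.53) and *Nars2* (-0.73). Without WT3 and HET3 the medians of these 4 lists were -0.51, -0.39, -0.15 and -0.24 with 0 genes lower at an unadjusted p-value under 0.05, and against the male WT samples 0.28, 0.18, 0.24 and 0.28.

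The RNAs that these ribosomes hold and read are encoded in the mitochondrial genome. The 2 mitochondrial rRNAs had -0.24 and -0.30. Of the 13 mitochondrial mRNAs 8 were tested, without *mt-Nd4l*, *mt-Co2*, *mt-Co3*, *mt-Atp6* and *mt-Atp8*. Among those tested 1 was lower, *mt-Co1* (-0.47), with a median of -0.33 for the 8. *mt-Nd3*, at 0 to 0.84 CPM, had the only positive fold change (5.02). *mt-Nd1* and *mt-Nd2* had -0.79 and -0.51 with unadjusted p-values of 0.089 and 0.15. Among 12 regulators of mitochondrial genes, 1 was lower and 2 higher (15.7% of all genes were higher), *Esrra* (-1.07), *Mycn* (3.46) and *Gabpb1* (0.55). *Nrf1* had -0.11 and *Yy1* -0.06. *Myc*, a known activator of ribosome genes, was at 267, 164 and 1414 CPM in WT, 881, 756 and 1484 CPM in HET, and 236 and 840 CPM in KO (-1.18 ± 0.77, unadjusted p = 0.16), with WT1, WT2 and KO1 low as for the members. Of 8 proliferation genes 2 were lower, *Pcna* (-0.85) and *Ccna2* (-0.90), near the share among genes of 10 CPM or more (19.7%). The other 6 had fold changes from -0.85 (*Ccnb1*) to -0.08 (*Mcm2*). Without WT3 and HET3 the medians of the rRNAs, mRNAs, regulators and proliferation genes were -0.42, -0.45, -0.16 and -0.30. Against the male WT samples these medians turned to 0.12, 0.32, 0.17 and 0.32. All 7 HSC markers were higher in KO than in the female samples at an unadjusted p-value under 0.05, from 0.51 for *Kit* to 2.86 for *Ly6a*. Without WT3 and HET3 all 7 kept positive fold changes, with a median of 1.54, and 1 of them had an unadjusted p-value under 0.05. Against the male WT samples 6 of the 7 had negative fold changes, with a median of -0.61. In the first model *Cd48*, whose protein was absent from the gate, had 0.16.

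In other large families the fitted difference from the female samples had the same sign. In the KO comparison 43 of 88 cytosolic ribosomal protein genes were lower at an unadjusted p-value under 0.05, with a median of -0.61, and 49 of 82 respiratory chain subunits, with a median of -0.58. In HET against WT their medians were 0.31 and 0.29, beside 0.28 for the members. DESeq2 placed 21 and 24 of them at an adjusted p-value under 0.05, beside 43 of the 78 members. These families turned against the male WT samples as the members did, with medians of 0.26 and 0.24. Without WT3 and HET3 their medians were -0.60 and -0.56, with 2 and 1 genes lower at an unadjusted p-value under 0.05.

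**Figure D5:**
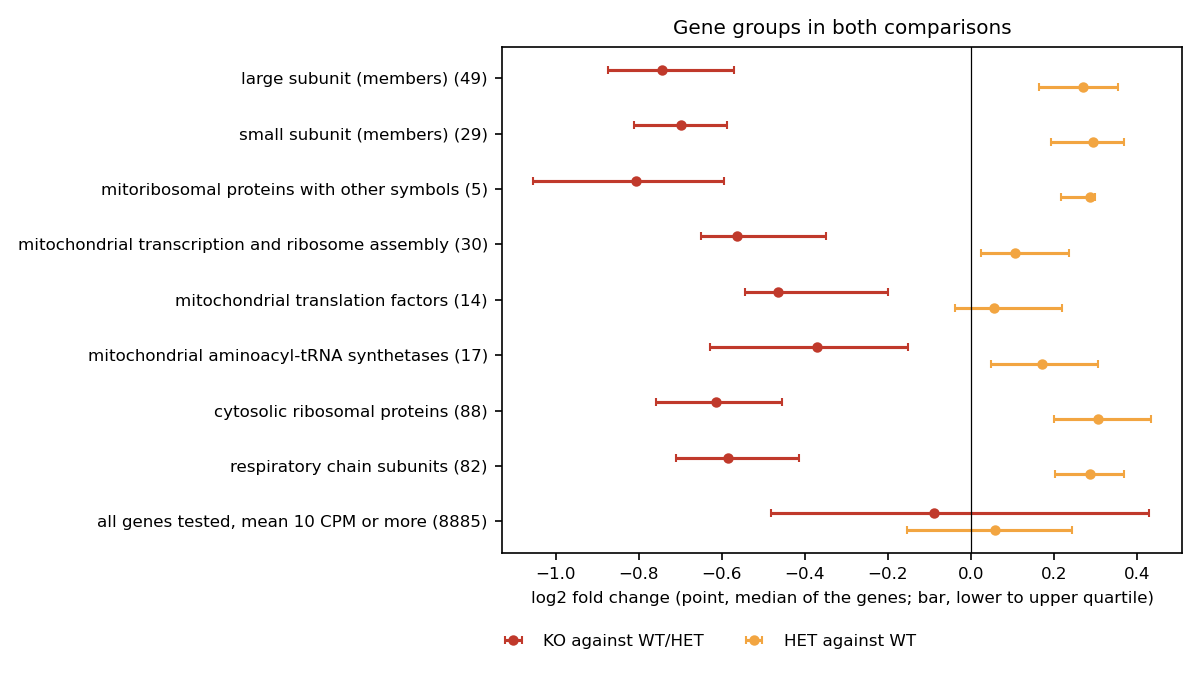
Median log2 fold change (points) with lower and upper quartiles (bars) of the genes of each group, in KO against WT/HET (red) and HET against WT (orange), with the number of genes in parentheses. The members lie at -0.74 and -0.70 for KO, beside -0.61 for cytosolic ribosomal proteins and -0.58 for respiratory chain subunits, and the 8885 genes of 10 CPM or more at -0.09.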

How the data were processed

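Bulk RNA-seq of 8 samples was analyzed, with cDNA of 500 sorted cells amplified by PCR and sequenced as single-end reads of 50 bases. Per the methods and the submitters' processing notes, the authors trimmed reads with Trim Galore 0.6.6, aligned them to GRCm38 with STAR 2.7.8 and deposited raw counts of uniquely mapped reads per Ensembl gene, with DESeq2 1.38.3 used later. The strand setting of the counting was not given in the sources used here, so overlapping genes are uncertain. A second deposited table, normalized and corrected for sex, was not used.

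Ensembl IDs were matched to GENCODE M21, which gave symbols, positions and exon lengths. Genes with 10 or more summed reads were kept, normalized by TMM and tested with edgeR 4.0.16 (quasi-likelihood, legacy form, R 4.3.3), with terms for sex and genotype and Benjamini-Hochberg adjustment over all 20610 genes. CPM are counts scaled to TMM-normalized library size, without molecular identifiers. DESeq2 1.42.0 with apeglm 1.24.0 was the alternative. The tests were checked on simulated data that held no difference by sex, RNA label or cell markers, so the check does not cover these. Named genes were the 5 members of lowest p in each subunit, the extremes of level per length, the 3 lowest p in HET against WT and 16 genes chosen by role, all with a mean of 5 CPM or more, and others are marked as chosen after their values were seen. Members and lists were chosen with earlier results of these data known. The origin and role lists come from general knowledge.

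Same-numbered WT and HET samples deviated from their group means together (r = 0.70, 0.49 and 0.77 over 8885 genes), so by the rule used here the numbers were taken as pairing HET with WT, although WT2 deviated more closely with HET1 (r = 0.72) and the numbers are not singled out. For KO they did not (r from -0.63 to 0.62). All pairs of samples within a group differed beyond sampling noise (chi-square per gene 16.1 to 215). Alternatives covered the tool, scaling, filters, covariates, samples and members.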

Additional observations from a re-analysis of the deposited data

Results flagged for a closer look

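One pattern was picked out because groups moved in opposite directions. For 30 of the 78 genes (12.6% of all genes) the male HET sample lay above both male WT samples, while both female HET samples lay below the female WT sample. The test of this difference in edgeR, a term for genotype by sex over the 6 WT and HET samples, gave 0 genes at an adjusted p-value under 0.05. At an unadjusted p-value under 0.05 it gave 39 of the 78, all with the higher HET difference in males (6.39% of all genes). The median of the male minus the female HET difference was 0.65 on the log2 scale over the members and -0.12 over all genes. With 1 male HET and 1 female WT sample, sex, the RNA label and single samples cannot be told apart, and the HSC marker sums of the 6 samples (1229, 1302 and 226 CPM in WT, 451, 398 and 197 CPM in HET) ran against the members.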

How the results depend on the processing

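In KO against WT/HET the count of members called, 0, became 9 with DESeq2's Wald test, 2 with apeglm and 3 without a filter beyond 1 read. The 63 members lower at an unadjusted p under 0.05 became 0 without the sex covariate, 3 with the replicate block, 4 without WT3 and HET3, 0 without them and without sex, 0 against the 2 male WT samples, and 38 of the 45 members without exonic overlap, a smaller set. The medians of members, large and small subunit (-0.72, -0.74, -0.70) were -0.18, -0.17 and -0.20 without WT3, HET3 and sex, and reversed to 0.25, 0.26 and 0.24 against the male WT samples. The settings on WT3, HET3, the male WT samples and KO against WT without sex were chosen after seeing the data. Leaving out 1 sample at a time gave 4 (without KO1) to 73 members lower and 0 called, with medians from -0.93 (without KO2) to -0.50 (without KO1), for the large subunit -0.95 to -0.52 and the small -0.89 to -0.47. The sample left alone in a group was then assumed to vary like the others. Scaling by library size moved the median of all genes from 0.13 to 0.41 and of members to -0.45. In the KO comparison the replicate block changed no count of adjusted calls, and KO samples share only a number with the others. In HET against WT the count of 1 higher became 0 without sex and with the replicate block. Without WT3 and HET3 it was 65 (13.7% of all genes), with 8 called (3.26% of all genes called higher). Leaving out 1 sample gave 0 to 53 (53 without WT3, 9.51% of all genes, and 14 without HET2) and 0 called. The medians then ran from -0.07 (without HET1) to 0.60 (without WT3). Shares over all genes are not given for the counts without a filter, with the replicate block or without HET2, nor for the 73 lower in KO. For KO against WT, 59, which rest on WT3 as the only female WT sample, became 20 with 3 genotype levels and 0 without sex. For KO against HET, 54 became 2 without HET3. The cause of these shifts was not tested. Large minus small was 0.38 by medians in place of 0.29 by means. Of 29 named genes under these settings, 40 values passed an adjusted p of 0.05 that did not in the first fit. DESeq2 with and without apeglm share their adjusted p-values, so a gene that passed there was counted under both. None of the 29 changed sign, except against the male WT samples, where all 29 were positive.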
